A study of Mus musculus with 24 samples.

Results

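Ucp1 and 9 other genes of brown and white fat were described in kidneys of BPH/2J mice, a hypertensive Schlager strain, and BPN/3J mice, its normotensive counterpart. The genes were Ucp1, Cidea, Elovl3, Adipoq, Plin1, Cfd, Retn, Lep, Fabp4 and Pparg. Each was measured by the probe set that carried its symbol alone, and with several such probe sets the one of highest mean would have been used. Of the 10 genes, 9 had such a probe set, 1 each, among 18782 genes so measured, and Cfd was not analysed here. The genes had been chosen from these same data, after a higher level of fat genes in BPH/2J females and their common variation across arrays had been seen, so the female strain comparison, the comparisons of the sexes, which share its arrays, and the correlations between the genes are given below as descriptions. Counts of genes past a threshold are printed for these comparisons beside the share or number of all probe sets, and nothing is read from them.

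Kidney tissue was taken at 12 weeks from mice of both sexes, and 1 array was run per kidney RNA. The 4 groups were BPH/2J females, BPN/3J females, BPH/2J males and BPN/3J males, with 6 arrays each and 24 in all. Neither strain carries a transgene by its label, and hypertension and strain background cannot be told apart in this design. Values are log2 expression after RMA normalisation, so that a difference of 1 is a doubling. Medians of the arrays lay between 6.89 and 6.97, and arrays of the same group correlated at 0.981 to 0.997 over the 28853 probe sets. In all arrays the mean of 11 markers of kidney tubule and podocyte was high, between 11.92 and 12.14.

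Brown adipocytes burn fat to make heat. Ucp1, in their mitochondrial inner membrane, lets protons return without ATP synthesis. Cidea is a lipid droplet protein and Elovl3 a fatty acid elongase, and both are abundant in brown fat. White adipocytes store triglyceride behind the droplet coat protein Plin1 and secrete adiponectin (Adipoq), resistin (Retn) and leptin (Lep), while Fabp4 carries fatty acids within fat cells and Pparg is the nuclear receptor that drives fat cell formation. Around the mouse kidney lies perirenal fat, which can hold both cell types, and the adrenal gland lies at its upper pole. In tissue RNA, fewer cells of a type and less RNA per cell cannot be told apart.

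Promoter windows of Ucp1, Adipoq and Retn are shown. After subtraction of group means, Adipoq and Retn correlated across arrays at 0.89, and Ucp1 with them at 0.31 and 0.25. They are the 250 bases before the RefSeq start site on GRCm38.p6, and 7 of the 10 genes had an entry. Capitals mark matches, on either strand, to the TATA box TATAAA, the CCAAT box CCAAT, the C/EBP core motif GCAAT, the nuclear receptor core motif AGGTCA and, for a cAMP response element, the core TGACG. No matches overlapped in these windows.
Ucp1 promoter, chr8:83290098-83290347, plus strand: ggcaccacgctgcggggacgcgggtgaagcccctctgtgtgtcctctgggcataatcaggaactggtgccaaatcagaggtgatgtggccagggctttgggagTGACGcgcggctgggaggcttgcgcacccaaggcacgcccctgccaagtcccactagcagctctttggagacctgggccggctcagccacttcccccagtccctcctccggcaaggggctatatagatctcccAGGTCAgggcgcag
Adipoq promoter, chr16:23146286-23146535, plus strand: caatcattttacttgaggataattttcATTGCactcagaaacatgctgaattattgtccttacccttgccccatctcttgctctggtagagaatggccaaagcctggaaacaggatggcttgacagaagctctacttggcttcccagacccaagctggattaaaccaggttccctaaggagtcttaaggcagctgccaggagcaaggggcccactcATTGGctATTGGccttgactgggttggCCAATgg
Retn promoter, chr8:3655520-3655769, plus strand: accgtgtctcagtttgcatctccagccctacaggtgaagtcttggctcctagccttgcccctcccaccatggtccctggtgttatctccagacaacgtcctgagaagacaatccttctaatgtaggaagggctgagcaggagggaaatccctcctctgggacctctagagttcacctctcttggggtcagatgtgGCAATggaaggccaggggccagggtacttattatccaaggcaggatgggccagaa

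The Ucp1 window held a cAMP element core that began 147 bases before the start site and a nuclear receptor core motif that began 14 bases before it. Of 32851 windows of this length, 17.77% held the first motif and 14.02% the second. The Adipoq window held 3 CCAAT boxes, at 34, 27 and 7 bases before the start, and 1 C/EBP core motif. The Retn window held 1 C/EBP core motif, 55 bases before the start. A CCAAT box was present in 33.85% of all windows, a C/EBP core motif in 23.08% and a TATA box in 12.37%. These matches describe the letters of the windows only.

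Ucp1 separated the 4 groups more widely than any other of the 9 genes. In BPH/2J females arrays 1 to 6 gave 9.87, 10.18, 10.51, 9.29, 8.16 and 7.78, against 6.0, 6.20, 6.35, 5.22, 5.37 and 5.68 in BPN/3J females. Every BPH/2J female was above every BPN/3J female, and arrays 5 and 6 were the lowest of the BPH/2J females. In BPH/2J males the 6 values were 7.92, 7.19, 8.27, 6.45, 6.29 and 6.92, against 6.34, 7.30, 6.46, 7.42, 8.49 and 7.51 in BPN/3J males. The male groups overlapped over most of their range, between the 2 female groups. Ucp1 thus averaged 9.30 ± 1.11 in BPH/2J females and 5.80 ± 0.45 in BPN/3J females, and 7.17 ± 0.79 in BPH/2J males and 7.25 ± 0.79 in BPN/3J males (SD, n = 6 each). The gap between the male groups was smaller than their SD, and the gaps that set them off from BPH/2J females above and BPN/3J females below were larger than the larger SD of the groups beside them.

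**Figure D1:**
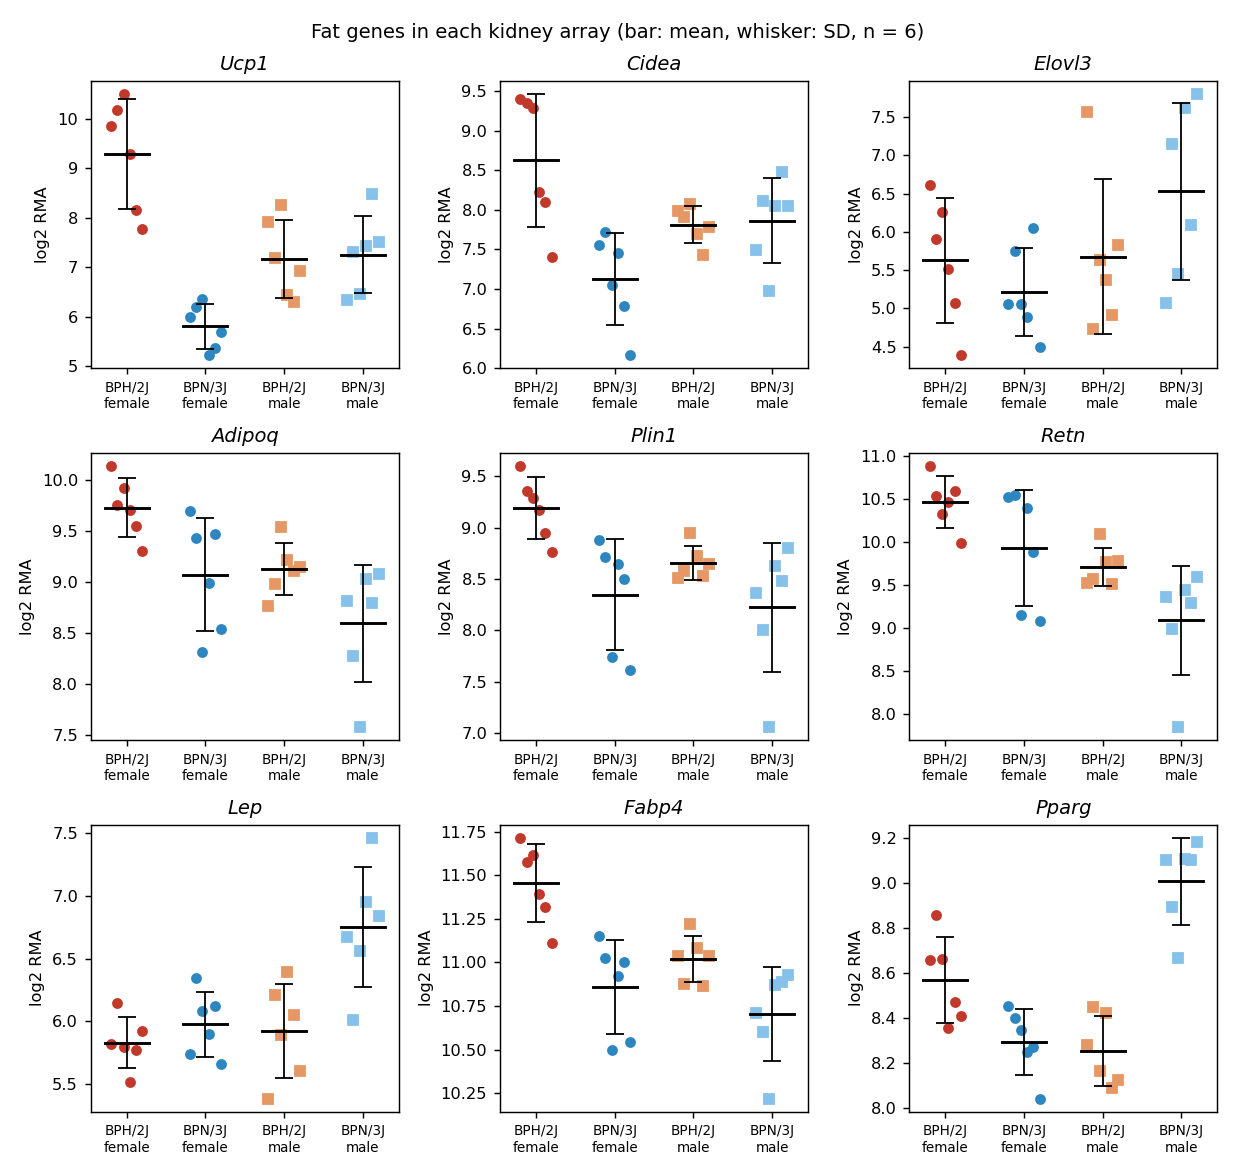
Log2 RMA value of each of the 9 fat genes (vertical axis, own scale per gene) in every array (points), with the mean (bar) and SD (whisker) of the 6 arrays of each strain and sex along the horizontal axis. Ucp1 is highest in BPH/2J females (mean 9.30) and lowest in BPN/3J females (mean 5.80), and Pparg and Lep are highest in BPN/3J males (means 9.01 and 6.75).

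Cidea, another brown fat gene, had the same order of group means as Ucp1, with smaller gaps, and Elovl3 had a different order. Cidea ranged from 7.40 to 9.40 with a median of 8.76 in BPH/2J females, against 6.16 to 7.72 with a median of 7.26 in BPN/3J females. BPH/2J females 1, 2 and 3 were the highest of their group, and 5 of the 6 lay above all BPN/3J females. In males, Cidea had a median of 7.85 (7.42 to 8.08) in BPH/2J and of 8.05 (6.97 to 8.48) in BPN/3J, and these groups overlapped. Elovl3 averaged 5.63 ± 0.81 in BPH/2J females and 5.22 ± 0.58 in BPN/3J females, and 5.67 ± 1.02 in BPH/2J males and 6.53 ± 1.16 in BPN/3J males (SD, n = 6 each). No gap between neighbours in the order of these means exceeded the larger SD beside it. A single BPH/2J male, array 1, reached 7.56 for Elovl3 while the other 5 of its group were at 5.83 or lower.

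The white fat genes Adipoq, Plin1, Retn and Fabp4 had their highest means in BPH/2J females and their lowest in BPN/3J males. Adipoq was 10.13, 9.75, 9.92, 9.70, 9.55 and 9.30 in BPH/2J females, against 9.69, 9.42, 8.31, 8.99, 9.46 and 8.53 in BPN/3J females. It was 8.76, 8.98, 9.54, 9.21, 9.11 and 9.15 in BPH/2J males, against 8.81, 8.28, 7.58, 9.02, 8.79 and 9.08 in BPN/3J males. The Adipoq SD was 0.29 in BPH/2J females and 0.26 in BPH/2J males, against 0.55 in BPN/3J females and 0.57 in BPN/3J males. Plin1 ranged from 8.76 to 9.60 (median 9.23) in BPH/2J females, against 7.62 to 8.88 (median 8.57) in BPN/3J females. Retn, by the same measures, ranged from 9.98 to 10.89 (median 10.5) in BPH/2J females and from 9.08 to 10.54 (median 10.14) in BPN/3J females, so that its groups overlapped more than those of Plin1. Fabp4 ranged from 11.11 to 11.72 (median 11.49) in BPH/2J females, against 10.50 to 11.15 (median 10.96) in BPN/3J females. The same low arrays recurred across these genes: BPN/3J females 3 and 6 were the 2 lowest of their group for each of the 4, and BPN/3J male 3 was the lowest of all males for each.

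Lep and Pparg had their highest means in BPN/3J males, as Elovl3 did, and differed from each other in the order of the other groups. Pparg was 8.28, 8.45, 8.16, 8.42, 8.09 and 8.12 in BPH/2J males, against 9.10, 8.89, 8.67, 9.11, 9.10 and 9.18 in BPN/3J males. All 6 BPH/2J males lay below all BPN/3J males. In females, Pparg ranged from 8.36 to 8.86 (median 8.56) in BPH/2J and from 8.04 to 8.45 (median 8.31) in BPN/3J, with an overlap. Lep ranged from 5.38 to 6.39 (median 5.97) in BPH/2J males, against 6.01 to 7.47 (median 6.76) in BPN/3J males. Lep means of the other groups were 5.83 in BPH/2J females and 5.98 in BPN/3J females, and the steps between these and the BPH/2J males were smaller than their SDs.

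The strain difference in males was not the one that led to the choice of genes. The common variation that also led to it was seen across arrays that include these males, so the male tests are not independent of the choice. Between strains in males, 0 of the 9 genes passed a Bonferroni-adjusted p of 0.05 in limma, where 2.56% of all probe sets passed in either direction. At an unadjusted p under 0.05, 3 of the 9 were higher in BPH/2J males (Adipoq, Retn and Fabp4), where 13.4% of all probe sets were, and 2 lower, where 12.9% were. Pparg came nearest, 1.69-fold lower in BPH/2J males (log2 difference −0.75, SE 0.09), with a Bonferroni-adjusted p of 0.0513. Over the 12 fits that each left out 1 array this p ran from 0.00516 to 0.249, and it passed only without BPN/3J male 3, the array with the lowest Pparg of its group. The unequal-variance form of the methods' two-sided test gave an adjusted p of 0.812. By the Benjamini-Hochberg adjustment of the same limma fit, 0 genes were higher, against 7.48% of all probe sets, and 2 of the 9 were lower, against 7.7% of all probe sets. These were Pparg (adjusted p = 6.89e-05) and Lep (1.77-fold lower, log2 difference −0.83, SE 0.22, adjusted p = 0.0206). The level of Lep was low, with a mean of 6.12 over the 24 arrays, at percentile 38.6 of all probe sets. Ucp1 differed between BPH/2J and BPN/3J males by −0.08 (SE 0.40) and Cidea by −0.05 (SE 0.21), and both differences turned positive when single arrays were left out. Elovl3 differed by −0.85 (SE 0.55) and passed neither adjustment. Adipoq, Plin1, Retn and Fabp4 differed by 0.53, 0.43, 0.62 and 0.32, and none passed either adjustment.

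In females the log2 difference between BPH/2J and BPN/3J was 3.50 for Ucp1 (SE 0.43, an 11.3-fold ratio) and 1.5 for Cidea (SE 0.37). It was 0.84 for Plin1, 0.66 for Adipoq, 0.60 for Fabp4, 0.54 for Retn, 0.41 for Elovl3, 0.28 for Pparg and −0.15 for Lep. Of the 9 genes 0 passed the Bonferroni threshold, where 2.36% of all probe sets did, and 4 were higher and 0 lower by Benjamini-Hochberg, where 8.01% of all probe sets were higher and 6.48% lower. This is the comparison from which the genes became known. Without BPN/3J females 2 and 5, in which the mean of 20 hepatocyte genes stood apart at 11.63 and 11.87 while it was 6.83 to 7.60 in the other 4, the differences were 3.49 for Ucp1 and 1.57 for Cidea. The strain difference of Ucp1 in females exceeded that in males by 3.58 on the log2 scale, and that of Pparg by 1.03.

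**Figure D2:**
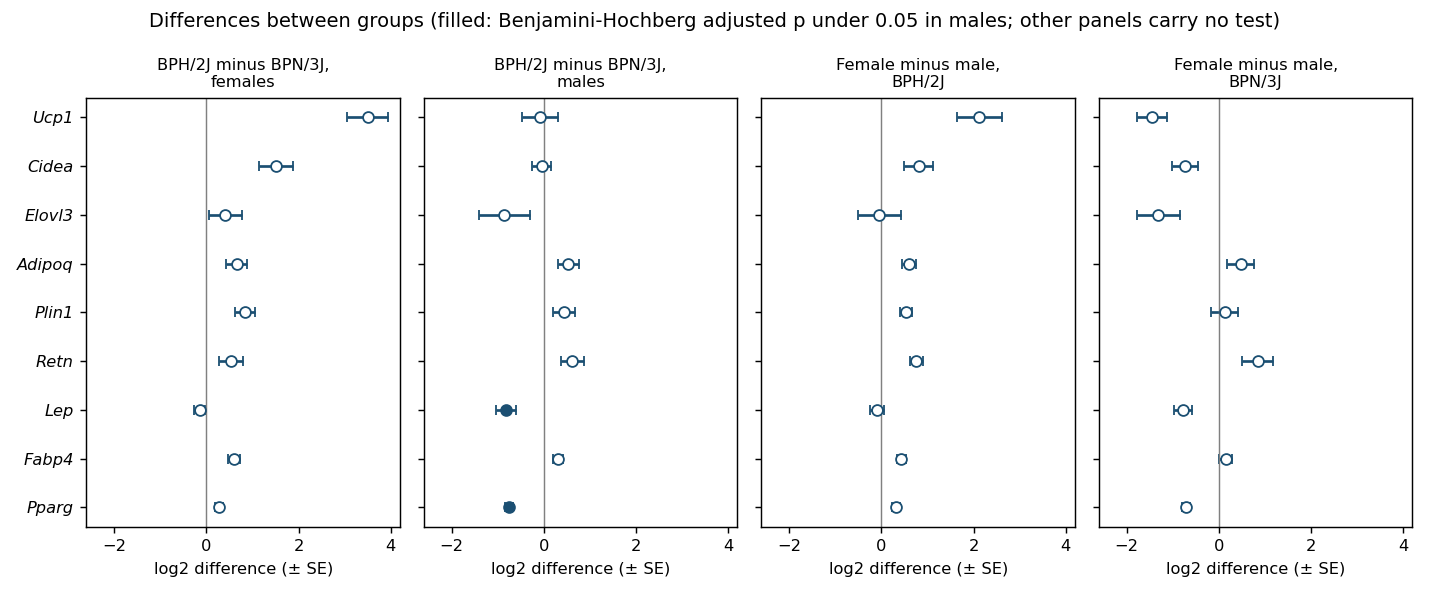
Log2 difference (horizontal axis, with SE as whiskers) of each fat gene (vertical axis) for BPH/2J minus BPN/3J in females and in males and for female minus male in BPH/2J and in BPN/3J; filled points have a Benjamini-Hochberg adjusted p under 0.05 in males, and the other panels carry no test. Ucp1 is 2.13 higher in females than males in BPH/2J and 1.45 lower in BPN/3J.

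Between the sexes, Ucp1 differed in opposite directions in the 2 strains. In BPH/2J, its level was 4.37-fold higher in females than in males (log2 difference 2.13, SE 0.49), with 4 of 6 females above every male. Those 4 females, arrays 1 to 4, were also the ones with high means of 9 adrenal cortex genes, 9.52 to 9.73, and with that mean as a covariate the Ucp1 difference was 1.32. Retn was 1.69-fold higher in BPH/2J females than males (0.76, SE 0.14). Adipoq, Plin1, Fabp4 and Pparg differed by 0.60, 0.53, 0.44 and 0.32, Cidea by 0.81, Lep by −0.09 and Elovl3 by −0.05. By Benjamini-Hochberg, 6 of the 9 genes were past the threshold upward and 0 downward, where 15.6% of all probe sets were higher and 13.4% lower in BPH/2J females.

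In BPN/3J, Ucp1 was 2.74-fold lower in females than in males (log2 difference −1.45, SE 0.33), with 5 of 6 females below every male. Pparg was 1.64-fold lower in females (−0.72, SE 0.09), with no overlap between the sexes, and Lep 1.71-fold lower (−0.77, SE 0.20). The other 2 brown fat genes had differences of −1.31 for Elovl3 (SE 0.47) and −0.74 for Cidea (SE 0.29). The white fat genes had differences of 0.84 for Retn, 0.48 for Adipoq, 0.15 for Fabp4 and 0.13 for Plin1. By Benjamini-Hochberg, 0 of the 9 genes were past the threshold upward and 3 downward (Ucp1, Pparg and Lep), where 14.4% of all probe sets were higher and 14.8% lower in BPN/3J females. With BPN/3J male 3 left out the count was 5, Cidea and Elovl3 being added, where 8112 of all probe sets passed in either direction. Without BPN/3J females 2 and 5 it was 4 (7223 of all probe sets), with Elovl3 added, and Ucp1 differed by −1.44.

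Within groups the fat genes varied more from array to array than most probe sets. Their common variation had led to the choice of genes, so these spreads are a description. The pooled within-group SD was 0.92 for Elovl3, 0.82 for Ucp1, 0.59 for Cidea, 0.50 for Retn, 0.45 for Plin1, 0.44 for Adipoq, 0.35 for Lep, 0.23 for Fabp4 and 0.17 for Pparg, while the median over all probe sets was 0.12. Elovl3 and Ucp1 both stood at percentile 99.4 of all probe sets by this SD, Cidea at 99.1, Fabp4 at 93.4 and Pparg at 80.0. The lowest and highest of the 24 arrays were 5.22 and 10.51 for Ucp1, and 10.22 and 11.72 for Fabp4.

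This variation was shared. After each value was set against the mean of its group, Adipoq, Plin1, Retn and Fabp4 correlated with each other across the 24 arrays at Pearson r of 0.89 to 0.96 (6 pairs). Ucp1 correlated with Cidea at 0.77 and with Elovl3 at 0.57, but with the 4 white fat genes only at 0.25 to 0.53. Cidea stood between, with r of 0.58 with Adipoq and 0.79 with Fabp4. Elovl3 had r of 0.38 with Adipoq and 0.58 with Fabp4, the latter as high as with Ucp1. Lep correlated with the other genes at −0.17 to 0.52, highest with Pparg, and Pparg with the others at 0.34 to 0.71, highest with Cidea. Of 36 pairs, 21 had r over 0.5. The points of each correlation are the 24 arrays, and the genes compared share the RNA, hybridisation and normalisation of each array.

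**Figure D3:**
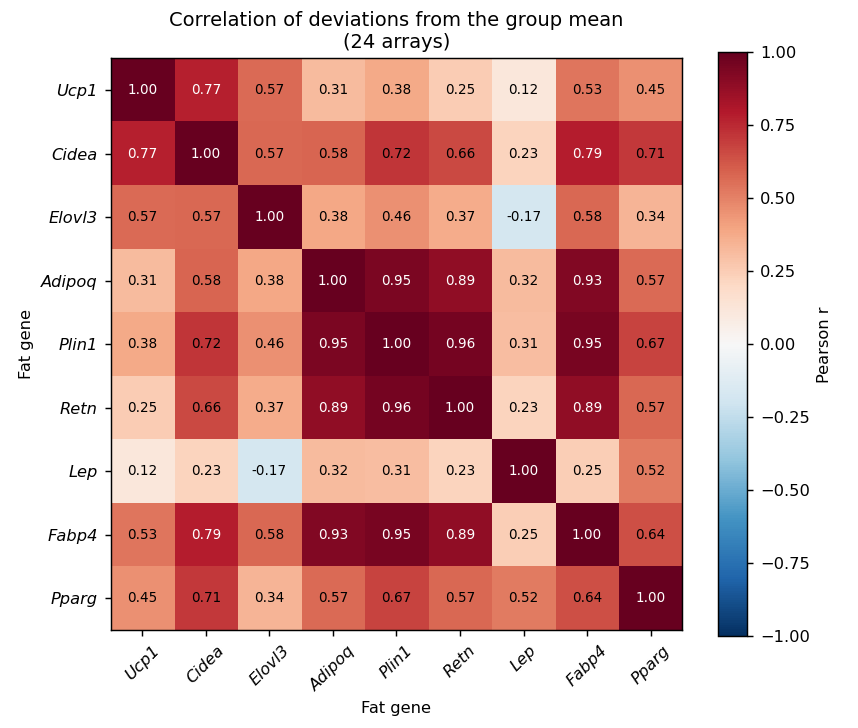
Pearson r between each pair of fat genes (both axes) over 24 arrays after subtraction of the group mean, on a colour scale from −1 to 1. Adipoq, Plin1, Retn and Fabp4 form a block at 0.89 or more, while Ucp1 is closest to Cidea (0.77).

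Within single groups of 6, Ucp1 and Cidea correlated at 0.94 in BPH/2J females, 0.92 in BPH/2J males and 0.90 in BPN/3J males, and at 0.26 in BPN/3J females, the group in which Ucp1 was lowest. Ucp1 and Adipoq correlated at 0.83 in BPH/2J females, −0.16 in BPN/3J females, 0.13 in BPH/2J males and 0.46 in BPN/3J males. An array could thus be high in adiponectin RNA and low in Ucp1. In BPN/3J female 1, Adipoq was 9.69 and Ucp1 6.0, while in BPN/3J male 5 Adipoq was 8.79 and Ucp1 8.49.

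**Figure D4:**
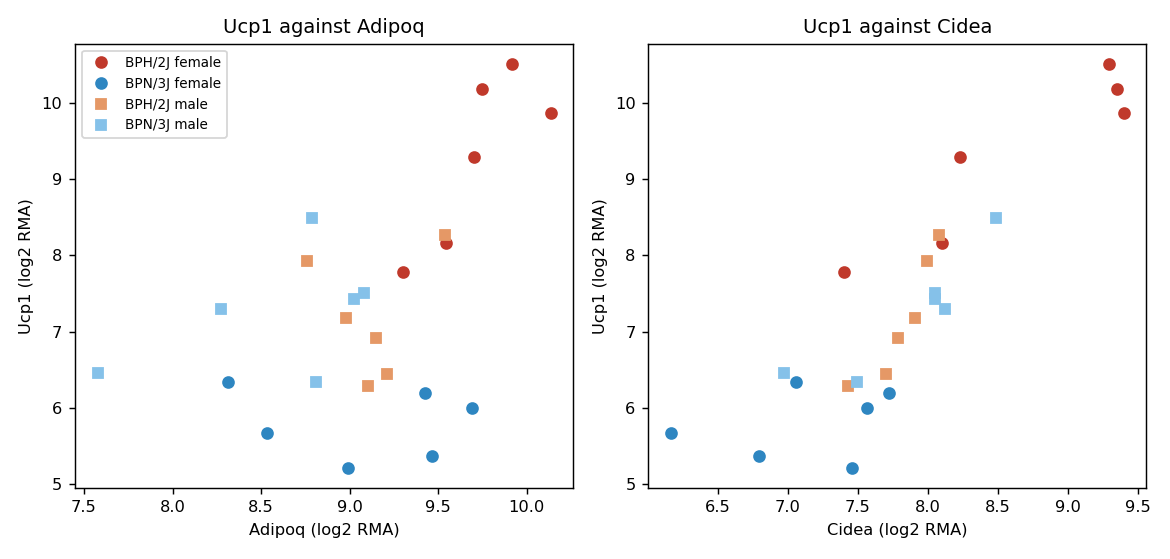
Ucp1 against Adipoq (left) and against Cidea (right), in log2 RMA, 1 point per array, coloured by strain and sex. Ucp1 follows Cidea in 3 of the 4 groups (r of 0.90 to 0.94), and BPN/3J females combine Adipoq of up to 9.69 with Ucp1 of at most 6.35.

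The genes whose deviations from the group mean were most like those of Ucp1 over the 24 arrays were Otop1 (r = 0.89), a proton channel gene expressed in brown fat, and Cox8b (r = 0.82), a cytochrome oxidase subunit of heart, muscle and brown fat. Pisd (0.76), Ucp3 (0.74), Trarg1 (0.71), Scn3b (0.71), Timp4 (0.70), Plin2 (0.70), Hoxc8 (0.69) and Ifngr1 (0.69) completed the 10 closest. None of the 10 was among the 10 closest to Adipoq. Those were Cidec (r = 0.97), Aoc3 (0.90), Plin4 (0.89), Gsn (0.88), Acvr1c (0.87), Postn (0.86), B3galt2 (0.85), Ebf2 (0.85), Arxes2 (0.84) and Slc36a2 (0.84). Cidec and Plin4 coat the fat droplet. Otop1 averaged 7.11 ± 0.58 in BPH/2J females, 6.37 ± 0.15 in BPN/3J females, 6.49 ± 0.32 in BPH/2J males and 6.91 ± 0.42 in BPN/3J males (SD, n = 6 each). Cox8b averaged 10.40 in BPH/2J females, 9.68 in BPN/3J females, 9.0 in BPH/2J males and 8.78 in BPN/3J males. Its level was higher in females than in males in both strains (1.40 in BPH/2J and 0.90 in BPN/3J).

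Further brown fat genes were taken from a list of 19, of which 17 were measured. The list includes Otop1, Cox8b and Ucp3, named above as close to Ucp1. The mean of the measured genes followed Ucp1 across arrays at r = 0.87 and Adipoq at 0.48 after subtraction of group means. Single genes of the list had r with Ucp1 from −0.50 (Ppargc1a) to 0.89 (Otop1), with Letmd1 at 0.66, Prdm16 at 0.09 and Zic1 at −0.28. In males, 0 were higher in BPH/2J and 1 was lower by Benjamini-Hochberg, which was Acot11, an acyl-CoA thioesterase (−0.80, adjusted p = 4.74e-06), where 7.48% of all probe sets were higher and 7.7% lower, and the median difference was 0.03 against 0.00 over all probe sets. Between the sexes, 6 were higher and 2 lower in BPH/2J females (15.6% and 13.4% of all probe sets), with a median of 0.14 against 0.00 over all probe sets. In BPN/3J females 4 were higher and 5 lower (14.4% and 14.8% of all probe sets), with a median of −0.06 against −0.02. Ucp3, a muscle and fat relative of Ucp1, was 0.50 higher in BPH/2J females than males and lower in BPN/3J females (difference −0.38). Ucp1 had the same directions, but Ucp3 was named above for its closeness to Ucp1 on these arrays. The values of Ucp3 are therefore a description only. Other members of that list did not follow Ucp1. Cited1, a transcriptional coregulator also known from kidney development, was 1.33 higher in BPH/2J females than males (adjusted p = 4.67e-08) and had r = −0.12 with Ucp1, and Ppargc1a, a coactivator abundant in kidney tubules, had r = −0.50.

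Of 20 white fat and general adipocyte genes, 19 were measured, and their mean followed Adipoq at r = 0.95 and Ucp1 at 0.50. They include Cidec, Plin4 and Acvr1c, named above as close to Adipoq. The r of single genes with Adipoq ran from −0.40 (Aqp7) to 0.97 (Cidec). In males, 3 were higher in BPH/2J (Acvr1c, Car3 and Npr3) and 2 lower (Agpat2 and Aqp7), where 7.48% and 7.7% of all probe sets were, with a median difference of 0.02. In BPH/2J, 5 were higher and 3 lower in females than in males (15.6% and 13.4% of all probe sets, median 0.11), and in BPN/3J 1 was higher and 2 lower (14.4% and 14.8%, median −0.003). Several of this list are also made by the kidney itself: Cd36, a fatty acid transporter, was lower in females by −0.94 in BPH/2J and −1.13 in BPN/3J, and Aqp7, a glycerol channel, had r = −0.40 with Adipoq. Lipe, the hormone-sensitive lipase, was 0.26 higher in BPH/2J females than males (adjusted p = 0.0325) and had r = 0.80 with Adipoq.

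Among 10 regulators of fat cell formation, 1 was higher and 1 lower in BPH/2J males, where 7.48% and 7.7% of all probe sets were. These were Ebf1 (0.35, adjusted p = 0.00156) and, lower, Srebf1, the transcription factor of lipid synthesis (−0.33, adjusted p = 0.00619). Of 6 genes that receive the secreted fat proteins, among them the adiponectin receptors Adipor1 and Adipor2 and the leptin receptor Lepr, strain differences in males lay between −0.17 and 0.09. Lepr was higher in females than in males by 0.55 in BPH/2J and 0.60 in BPN/3J (adjusted p = 8.22e-06 and 3.82e-05), and its r with Ucp1 was −0.24. Of 10 genes of fatty acid synthesis, in BPH/2J males 1 was higher and 4, Srebf1 again among them, were lower (7.48% and 7.7% of all probe sets, median −0.31). In BPH/2J females 7 were higher than in males and 2 lower (15.6% and 13.4% of all probe sets, median 0.36). Of 22 measured relatives of the fat genes, BPH/2J males had 2 higher and 1 lower, against 7.48% and 7.7% of all probe sets. The lower one, Plin2, a droplet protein of many cell types, differed by −1.10 (Bonferroni-adjusted p = 4.95e-05), the same direction as Pparg in males. In females the strain differences had opposite directions, −0.43 for Plin2 and 0.28 for Pparg.

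Genes of a neighbouring tissue varied across the same arrays. The mean of 9 adrenal cortex genes, which included the steroid-synthesis genes Cyp11b1 and Star, ranged from 5.73 to 10.07 over the 24 arrays, and female arrays fell into a high and a low cluster. In BPH/2J females it was 9.73, 9.63, 9.64 and 9.52 in arrays 1 to 4, which had the 4 highest Ucp1 values, and 6.36 and 5.77 in arrays 5 and 6. In BPN/3J females it was 9.84, 9.72, 10.07 and 8.49 in arrays 1, 2, 4 and 5, and 5.81 and 5.73 in arrays 3 and 6, the 2 lowest for Adipoq, while Ucp1 stayed between 5.22 and 6.35 in all 6. Between the sexes, 1 of the 9 adrenal genes was higher and 1 lower in BPH/2J females (15.6% and 13.4% of all probe sets, median difference 2.00), and 0 were higher and 1 lower in BPN/3J females (14.4% and 14.8%, median 1.49). Between strains in females their median difference was 0.26. The adrenal mean of BPH/2J males lay between 5.87 and 8.51, that of BPN/3J males between 5.80 and 8.83. With this mean as a covariate in limma, a setting added after the data were seen, the female minus male difference of Ucp1 was 1.32 in BPH/2J and −1.45 in BPN/3J. In that fit the count past the threshold was 5 in BPH/2J, Pparg no longer among them (0.23), and 5 in BPN/3J, where Cidea (−0.99) and Elovl3 (−1.72) were added. Of all probe sets, 7082 passed in BPH/2J and 7872 in BPN/3J with this covariate.

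**Figure D5:**
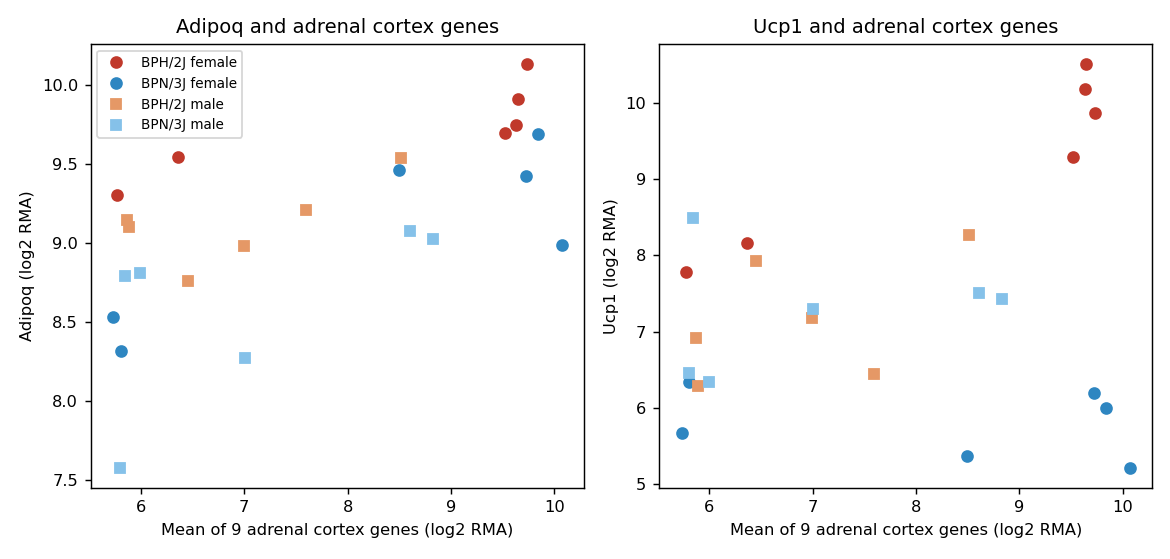
Adipoq (left) and Ucp1 (right), in log2 RMA, against the mean of 9 adrenal cortex genes, 1 point per array, coloured by strain and sex. The 4 BPH/2J females with adrenal means of 9.52 to 9.73 have Ucp1 of 9.28 or more, whereas BPN/3J females with means of 8.49 to 10.07 have Ucp1 of at most 6.20.

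Ucp1 and Adipoq were each compared with the means of 9 lists of other tissues, which made 18 correlations over 24 group-centred arrays, tested by permutation within groups. Of these, 4 passed a Benjamini-Hochberg adjusted p of 0.05. They included Adipoq with the adrenal cortex and adrenal medulla lists, for which no pooled r is given because the female arrays formed clusters. The variation of the fat genes across arrays was part of the reason for their choice. The p-values of these correlations are therefore not independent of that choice. How many of all probe sets would correlate as strongly with these lists was not examined. Ucp1 was lower where the kidney tubule and podocyte mean was higher (r = −0.57, p = 0.00094, adjusted p = 0.00564, rho = −0.67, p = 0.00026, adjusted p = 0.00426), although that mean spanned only 11.92 to 12.14. Within groups this r was −0.67 in BPH/2J females, −0.61 in BPN/3J females, −0.58 in BPH/2J males and −0.84 in BPN/3J males, and without the 2 arrays farthest from the median of the kidney mean it was −0.69. Without the BPN/3J males it was −0.50 and did not pass the threshold. Single genes of the kidney list had r with Ucp1 from −0.61 (Cubn) to 0.25 (Umod). Adipoq followed the macrophage mean (r = 0.58, p = 0.00694, adjusted p = 0.0312, rho = 0.51, p = 0.0241, adjusted p = 0.0866), with r of 0.65 in BPH/2J females, 0.90 in BPN/3J females, 0.16 in BPH/2J males and 0.24 in BPN/3J males. Without the 2 farthest arrays its r was 0.42 (permutation p = 0.057), without the BPN/3J females it was 0.32 and with arrays at a common median 0.54, and the relation passed the threshold in none of these. The part of adrenal, liver or immune RNA in the differences of the fat genes was not tested.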

How the data were processed

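Kidney RNA of 24 mice was hybridised to Affymetrix Mouse Gene 1.0 ST arrays, 1 per mouse. RMA normalisation was done by the authors, and the deposited values, used with no further change, are log2 expression. The RMA software version was not given in the sources used here, and the labels name no batch. Strain, sex and number came from each label. Of 28853 probe sets, 21159 carried 1 symbol, 1881 several and 5813 none in the platform annotation. The precision is limited by 6 arrays per group.

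The genes, the 15 gene lists and the tests were chosen with earlier results of these data known. Strains were compared within sex and sexes within strain on 12 arrays by limma 3.58.1 (R 4.3.3), over all probe sets. The strain threshold was a Bonferroni-adjusted p of 0.05, as in the study's methods, with a Benjamini-Hochberg adjusted p also given, and Benjamini-Hochberg alone served the sexes and the interaction of both, which was fitted on all 24 arrays. Where a p of a listed gene has no other name it is Benjamini-Hochberg adjusted. Correlations used values minus group means in Python 3.11.15, with 100000 two-sided permutations within groups where tested. Named genes were the 10 genes of interest, the 10 closest by r to Ucp1 and to Adipoq, and listed genes that were called or close to Ucp1; others were named after their values were seen. The limma step was tested on simulated data with known changes. Alternatives were other thresholds, a common median, trended and robust variance, a filter at the 40th percentile of level, 1 fit of all arrays, a block for replicate number and leaving out single arrays, and, chosen after seeing the data, 2 BPN/3J female arrays left out and the adrenal cortex mean as a covariate.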

Additional observations from a re-analysis of the deposited data

Results flagged for a closer look

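Retn in BPN/3J male 3 was 7.84, the lowest of its group, and lay farther from the other 5 arrays (8.98 to 9.59) than Dixon's 95% limit for 6 values. Of 36 groups of values so examined, chance marks about 1 in 20. The same array was also the lowest BPN/3J male for Adipoq (7.58), Plin1 (7.06) and Fabp4 (10.22), and its adrenal cortex mean was 5.80.

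The strain difference of Ucp1 was larger in females than in males by 3.58 on the log2 scale (SE 0.63), and that of Pparg by 1.03 (SE 0.13), the strain difference of Pparg being 0.28 in females and −0.75 in males. Both were picked out by the strain-by-sex term of limma. That term contains the female comparison from which the genes became known, so the values are given as a description, with no p.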

How the results depend on the processing

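Of 1260 values recomputed under an alternative, 1173 kept their direction and side of the threshold, or, where not tested, moved by less than the spread. Among the 9 genes, none passed between strains at the Bonferroni threshold in either sex, where 740 of all probe sets passed in males and 681 in females. By Benjamini-Hochberg 2 passed in males and 4 in females (4381 and 4180 of all probe sets). With the filter at the 40th percentile 1 and 1 passed (844 and 778 of those kept), and with all 24 arrays in 1 fit 1 and 1 (1188 and 1106). With the adrenal covariate 2 passed in females (631). In males 1 passed with a common median (723 of all probe sets) and 1 with trended and robust variance (1082), in each case Pparg. The counts in females, between sexes and for the interaction are descriptions, from which nothing is read. Between sexes, where 6 genes passed in BPH/2J and 3 in BPN/3J, 0 passed in either strain by Bonferroni (1361 and 1367 of all probe sets). In BPN/3J 5 passed with all 24 arrays in 1 fit (9126 of all probe sets) and 5 with the adrenal covariate (7872). The interaction passed for 2 genes, both upward, where 265 of all probe sets were higher and 243 lower. By Bonferroni it passed for 1, where 104 of all probe sets did. Of the 18 list correlations 4 passed, and 2 without subtraction of group means, where Ucp1 with the kidney list gave r = −0.06. The spread of Retn was 0.31 as a median absolute deviation.

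With single arrays left out, the count ran from 0 to 1 in males and in females, 6 to 7 between sexes in BPH/2J, 3 to 5 in BPN/3J and 2 to 3 for the interaction. The number of all probe sets past the threshold moved as well. Without BPN/3J male 3 it was 607 in males, 8112 between sexes in BPN/3J and 534 for the interaction. In females it was 533 without BPH/2J female 5 and 527 without BPH/2J female 6. Between sexes in BPH/2J it was 7861 without BPH/2J female 6. The strain difference in males ran from −0.30 to 0.16 for Ucp1 and −0.22 to 0.077 for Cidea. The sex difference ran from −0.24 to 0.33 for Elovl3 and −0.20 to 0.0006 for Lep in BPH/2J, and from −0.11 to 0.27 for Plin1 in BPN/3J. The interaction ran from −0.026 to 0.33 for Adipoq and −0.25 to 0.16 for Retn. Plin1 between the sexes in BPN/3J was −0.0018 without BPN/3J females 2 and 5 and −0.21 with the adrenal covariate. The cause of these changes was not tested.

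Deviations of same-numbered arrays correlated at −0.57 to 0.44 over 24 pairs, 10 of them over 0.1. Arrays of different number were not compared in this way, so whether replicate numbers pair the samples was not tested. With the replicate block 7 genes passed between sexes in BPH/2J, Cidea being added, where 7322 of all probe sets passed. In BPN/3J 4 genes passed with it, Retn being added, where 7912 of all probe sets passed. The other counts were as without the block. Elovl3 and Lep lay under the 40th percentile and have no value with that filter. Each gene had 1 probe set, so that averaging probe sets changed nothing.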
